A study of Mus musculus with 12 samples.

Results

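Stromal and extracellular matrix genes were examined in sorted murine bone marrow (BM) progenitors with and without BCR::ABL1. The 34 genes encode collagens, basement membrane and elastic fibre proteins, adhesive glycoproteins, proteoglycans, remodelling enzymes, insulin-like growth factor (IGF) binding proteins, and a chemokine and receptors of niche cells. They are 34 of the 56748 genes counted in every library. The genes were selected on their CPM in these libraries, in particular on high values in 1 BCR::ABL1+ library, CML 2wk 2, so the levels and fold changes of the 34 genes are a description and carry no test.

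Collagens and their partners are secreted proteins that assemble outside the cell into fibrils, microfibrils and the sheet-like basement membrane. In BM most of them are made by mesenchymal stromal cells, osteoblasts, pericytes and endothelium, which form the niche of haemopoietic stem cells, where CXCL12 retains these cells. Haemopoietic cells also make some matrix proteins and matrix-binding factors, and they hold on to the matrix through integrins.

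Bulk RNA-seq was made from 12 libraries of Lin-Sca+Kit+ (LSK) cells, which hold the haemopoietic stem cells and their earliest progeny. Donor BM came from SCLtTA/BCR-ABL double transgenic (DTG) mice, in which an SCL-driven tetracycline (TET) transactivator switches on human BCR-ABL when TET is absent. The donor marrow was pooled from several mice of both sexes. Irradiated B6.SJL recipients of both sexes (CD45.1, 8 to 12 weeks old, 2 doses of 4.25 Gy) received this CD45.2 marrow. They drank TET for the first 2 weeks. TET was then stopped for 2 weeks in the BCR::ABL1+ group (6 libraries, CML 2wk 1 to 6) and kept on in the BCR::ABL1- group (6 libraries, CTRL 1 to 6), after which CD45.2+ LSK cells were sorted. All 12 libraries therefore carry both transgenes and come from irradiated and transplanted mice, and the gate took CD45.2+ cells, a marker that haemopoietic cells of the donor carry and that stromal cells lack. The labels give all CTRL samples as male and all CML 2wk samples as female, so BCR::ABL1 and labelled sex cannot be told apart. The labels do not say that each library is a separate mouse, and p-values measure the spread between these libraries.

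Between 22804754 and 41832868 reads were counted per CTRL library and between 16150817 and 25070105 per CML 2wk library. Values are CPM, that is counts relative to library size, scaled by the trimmed mean of M-values (TMM), and 3 counts, the limit that a count of 0 allows, correspond to 0.0724 to 0.183 CPM. Such limits cover counting error only. Summed CPM of 10 LSK markers was 2765 to 3180 in CTRL, 1950 in CML 2wk 2, 1756 in CML 2wk 4 and 1456 to 1882 in the other 4 CML 2wk libraries. Of the sort markers Kit, the stem cell factor receptor, was read at 679.6 to 798 CPM in CTRL, 521 in CML 2wk 2, 408 in CML 2wk 4 and 322 to 443 in the other 4. Ly6a (Sca-1) was read at 27.2 to 38.3 CPM in CTRL, 73.9 in CML 2wk 2, 40.7 in CML 2wk 4 and 31.3 to 46.8 in the other 4. CML 2wk 2 stood apart from the rest, with 22965 genes that had a count against 24870 to 28602 in the other 11 libraries. Whether the pooling of donor marrow from both sexes bears on the Y-linked counts was not tested. The counts of 4 Y-linked genes did not follow the sex labels in either group. Their sum was 22.7 CPM in CML 2wk 2 and 2.55 in CML 2wk 4, both labelled female, and 0 to 0.0611 in the other 4 labelled female, while it was only 0.0753 to 0.523 in 5 of the 6 libraries labelled male and 2.30 in CTRL 1. The fold changes and counts are therefore also given without CML 2wk 2, or without CML 2wk 2 and 4. The human transgene was not analysed here.

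The 34 genes together took 582 to 670 CPM in CTRL. They took 410.0 to 557 CPM in CML 2wk 1, 3, 5 and 6, 1409 CPM in CML 2wk 4 and 6752 CPM in CML 2wk 2. CML 2wk 2 and 4 therefore lay above all others and the remaining 4 CML 2wk libraries lay below every CTRL library. Osteopontin (Spp1) and fibronectin (Fn1) made up 68.4% of the sum in CML 2wk 2, 27.6% in CML 2wk 4 and 1.77% to 7.35% elsewhere. CML 2wk 2 held the highest value of 30 of the 34 genes and CML 2wk 4 the highest of 2 (Postn and Lum). In 28 genes CML 2wk 2 was first and CML 2wk 4 second of the 12 libraries, an order that 4.45% of the 27464 genes with 10 or more counts had. This order was known when the list was made.

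**Figure D1:**
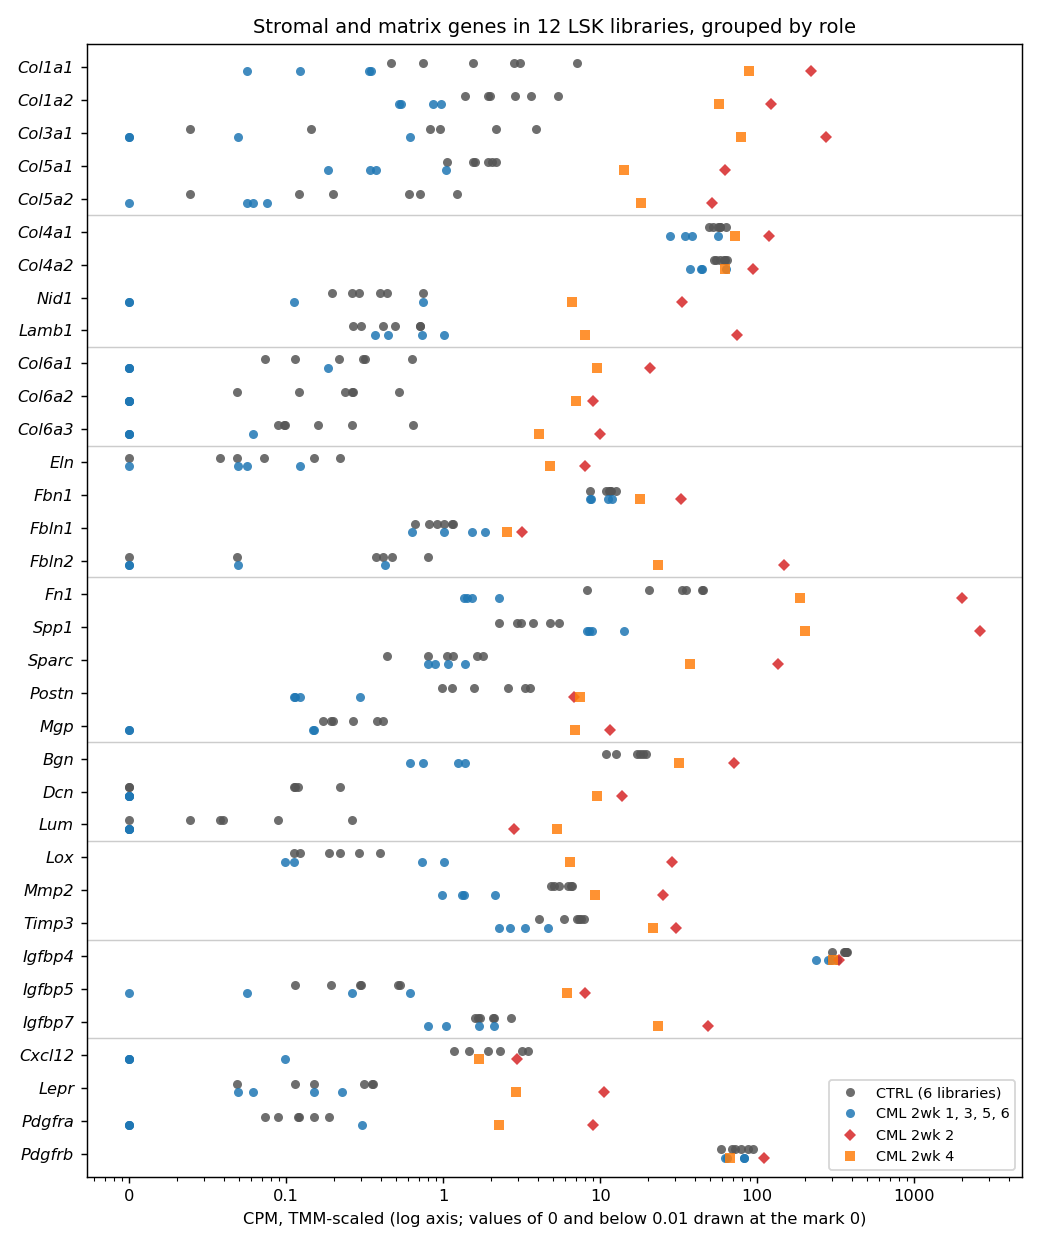
CPM of the 34 genes (log axis) in each of 12 libraries, by role from fibrillar collagens at the top to chemokine and receptors at the bottom. Grey circles are the 6 CTRL libraries, blue circles CML 2wk 1, 3, 5 and 6, red diamonds CML 2wk 2 and orange squares CML 2wk 4. CML 2wk 2 is the highest library for 30 genes.

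Fibrillar collagens build the tensile fibres of connective tissue, with type I made of the Col1a1 and Col1a2 chains, and with types III and V in mixed fibrils. The 5 chains summed to 3.42 to 19.7 CPM in CTRL, 1.31 to 1.97 in CML 2wk 1, 3, 5 and 6, 257 in CML 2wk 4 and 732 in CML 2wk 2. Col1a1 ranged from 0.464 to 7.09 CPM in CTRL (median 2.18) and from 0.0566 to 221 CPM in CML 2wk (median 0.341), with 89.2 CPM in CML 2wk 4 and at most 0.345 in the other 4 libraries. The CTRL range lay in the gap between the 4 low and the 2 high CML 2wk libraries. Col1a2 had the same layout, with 1.37 to 5.41 CPM in CTRL (median 2.42), 0.524 to 122 CPM in CML 2wk (median 0.909) and 56.7 CPM in CML 2wk 4. Col3a1 was read at 0.0244 to 3.88 CPM in CTRL (median 0.889) and 0 to 275 CPM in CML 2wk (median 0.330), where 2 libraries had no count. Its CML 2wk and CTRL ranges overlapped in the low libraries. Col5a1, which starts fibril assembly with type I collagen, ranged from 1.06 to 2.17 CPM in CTRL (median 1.75) and from 0.183 to 62.6 CPM in CML 2wk (median 0.704), and its partner Col5a2 from 0.0244 to 1.23 (median 0.400) and from 0 to 51.6 (median 0.0680). Type I collagen also varied widely within CTRL, where CTRL 3 was the highest library for Col1a1 and CTRL 1 the lowest.

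The Col1a2 window holds CCAAT, a promoter element bound by NF-Y and known for type I collagen genes, and is shown because Col1a2 is the fibrillar collagen with the most counts in the low CML 2wk libraries. It lies at chr6:4505368-4505667 on the plus strand (RefSeq, GRCm38.p6), covers 250 bases before to 50 bases after the annotated start, and is written 5' to 3' with CCAAT on either strand in capitals.
Col1a2: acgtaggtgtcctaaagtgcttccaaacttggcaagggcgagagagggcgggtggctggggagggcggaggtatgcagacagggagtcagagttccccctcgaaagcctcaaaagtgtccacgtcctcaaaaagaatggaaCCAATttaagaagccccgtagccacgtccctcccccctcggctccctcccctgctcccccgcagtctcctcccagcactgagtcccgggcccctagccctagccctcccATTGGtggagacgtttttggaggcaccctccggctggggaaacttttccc
RefSeq windows were found for 24 of the 34 genes (29 windows). CCAAT was present on either strand in 27.6% of these windows against 37.4% of all 32851 RefSeq windows of this length. TATAAA was held by 13.8% against 13.6%, GGGCGG (a GC box) by 55.2% against 35.7%, TGANTCA (the AP-1 motif) by 3.45% against 7.81%, and TGTGGT (a RUNX core) by 6.90% against 16.8%. These are matches of letters on both strands and a gene may count in several. Col1a1, Col5a2, Eln, Fn1, Mgp, Dcn, Lum, Lox, Mmp2 and Pdgfrb had no window.

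Basement membrane proteins divided into constitutive chains and chains near the floor. Col4a1 and Col4a2, the ubiquitous chains of type IV collagen, were well read in every library. Col4a1 ranged from 49.5 to 62.8 CPM in CTRL (median 57.1) and from 28.0 to 119 CPM in CML 2wk (median 47.2), and Col4a2 from 53.1 to 64.6 (median 59.7) and from 37.2 to 94.0 (median 53.2). For both genes CML 2wk 2 was highest. CML 2wk 4 also lay above the CTRL range for Col4a1, at 72.5 CPM, and within it for Col4a2, at 61.9 CPM. The ratio of Col4a1 to Col4a2 counts was 0.932 to 0.973 in the 6 CTRL libraries and 0.752 to 1.27 in CML 2wk, with 1.27 in CML 2wk 2 and 1.17 in CML 2wk 4. Nid1 (nidogen, which links laminin to type IV collagen) was read at 0.196 to 0.746 CPM in CTRL (median 0.344) and 0 to 33.3 CPM in CML 2wk (median 0.425). Lamb1, the laminin beta 1 chain, was read at 0.265 to 0.712 CPM in CTRL (median 0.453) and 0.367 to 74.6 CPM in CML 2wk (median 0.873), with 8.01 in CML 2wk 4. The ratio of Lamb1 to Lamc1 counts, chains that assemble into one laminin, was 0.0112 to 0.0291 in CTRL, 0.331 in CML 2wk 4 and 1.59 in CML 2wk 2.

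Col4a1 and Col4a2 are neighbours read in opposite directions, and their windows are shown because the chains kept close counts in every library. The windows are chr8:11312777-11313076 on the minus strand for Col4a1 and chr8:11312555-11312854 on the plus strand for Col4a2 (RefSeq, GRCm38.p6). They share 78 bases, in capitals, and the annotated starts are 21 bases apart, with the first bases of both genes lying on opposite strands of the same stretch. The counting strand is not given in the sources used here, so reads from that stretch could not be told apart.
Col4a1: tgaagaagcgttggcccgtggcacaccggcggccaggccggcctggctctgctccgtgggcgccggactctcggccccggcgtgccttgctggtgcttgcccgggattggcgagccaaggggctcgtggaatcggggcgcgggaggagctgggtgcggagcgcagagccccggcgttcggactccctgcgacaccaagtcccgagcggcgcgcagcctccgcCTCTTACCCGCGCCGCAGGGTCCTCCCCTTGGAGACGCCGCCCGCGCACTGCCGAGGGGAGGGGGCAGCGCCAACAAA
Col4a2: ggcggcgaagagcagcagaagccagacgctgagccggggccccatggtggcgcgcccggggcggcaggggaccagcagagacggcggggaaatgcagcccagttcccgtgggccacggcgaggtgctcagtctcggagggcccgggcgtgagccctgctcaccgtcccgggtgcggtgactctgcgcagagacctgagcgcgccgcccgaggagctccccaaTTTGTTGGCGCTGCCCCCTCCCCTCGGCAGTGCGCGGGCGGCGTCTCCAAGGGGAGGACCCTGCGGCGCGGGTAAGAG
Both windows hold CCAAT and GGGCGG on one strand or the other.

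Collagen VI, a beaded microfibril of the pericellular matrix, was close to the floor outside CML 2wk 2 and 4. Col6a1, Col6a2 and Col6a3 summed to 0.220 to 1.42 CPM in CTRL, to at most 0.245 CPM in CML 2wk 1, 3, 5 and 6, to 20.6 in CML 2wk 4 and to 39.8 in CML 2wk 2. In those 4 libraries together Col6a2 had 0 counts, Col6a3 had 1 and Col6a1 had 3.

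Elastic fibre proteins, which let tissues recoil, ranged from a constitutive scaffold to traces. Fibrillin-1 (Fbn1), the scaffold of elastic fibres, ranged from 8.62 to 12.5 CPM in CTRL (median 11.5) and from 8.62 to 32.6 CPM in CML 2wk (median 11.5). Fbln2 (fibulin-2) ranged from 0 to 0.795 CPM in CTRL (median 0.394) and from 0 to 149 CPM in CML 2wk (median 0.239), with 23.2 in CML 2wk 4. Fbln1 (fibulin-1) kept to 0.663 to 1.16 CPM in CTRL (median 0.959) and 0.636 to 3.16 CPM in CML 2wk (median 1.68), and elastin (Eln) to 0 to 0.221 (median 0.0606) and 0 to 7.94 (median 0.0894). Fbn1 and Fbln1 were read in every library, whereas Fbln2 and Eln had libraries at 0 in both groups.

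The 5 matricellular and adhesive glycoproteins summed to 16.2 to 52.2 CPM in CTRL, 11.4 to 16.7 in CML 2wk 1, 3, 5 and 6, 441 in CML 2wk 4 and 4775 in CML 2wk 2. Spp1, osteopontin, an integrin and CD44 ligand made by bone cells, macrophages and other cells, was read at 2.27 to 5.50 CPM in CTRL (median 3.44) and at 8.25 to 2619.8 CPM in CML 2wk (median 11.5), with 202 in CML 2wk 4. It was the one gene of the 34 whose 6 CML 2wk libraries all lay above all 6 CTRL libraries. The share of all genes with this layout was not counted, so nothing particular to Spp1 is read from it. Leaving out CML 2wk 2 and 4 the 4 remaining libraries had 8.25 to 14.1 CPM, still above every CTRL library, and in the 27464 genes with 10 or more counts 17% had all 4 above. Fn1, the fibrous adhesion protein of plasma and matrix, ranged from 8.25 to 45.1 CPM in CTRL (median 34.1) and from 1.35 to 2001 CPM in CML 2wk (median 1.89), with 187 in CML 2wk 4 and at most 2.26 in the other 4. Fn1 thus went below the whole CTRL range in 4 CML 2wk libraries and above it in 2. Sparc (osteonectin, a collagen-binding matricellular protein) ranged from 0.440 to 1.79 CPM in CTRL (median 1.10) and from 0.795 to 136 CPM in CML 2wk (median 1.23). Postn (periostin) ranged from 0.979 to 3.59 CPM in CTRL (median 2.07) and from 0.112 to 7.42 CPM in CML 2wk (median 0.209), with CML 2wk 4 the highest library. Mgp (matrix Gla protein, an inhibitor of calcification) ranged from 0.171 to 0.411 CPM in CTRL (median 0.231) and from 0 to 11.5 CPM in CML 2wk (median 0.149).

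The Spp1 window is shown because Spp1 was the gene that separated the groups in all libraries. It lies at chr5:104434861-104435160 on the plus strand (RefSeq, GRCm38.p6), and the capitals mark TATAAA, which starts 211 bases before the annotated start.
Spp1: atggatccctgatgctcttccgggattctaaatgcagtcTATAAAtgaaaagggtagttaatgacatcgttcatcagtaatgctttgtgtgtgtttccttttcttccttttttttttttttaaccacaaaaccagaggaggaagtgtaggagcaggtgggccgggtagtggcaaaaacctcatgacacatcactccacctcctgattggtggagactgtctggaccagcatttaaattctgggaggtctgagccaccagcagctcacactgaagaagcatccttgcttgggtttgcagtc
The window also holds CCAAT and TGTGGT, read on one strand or the other.

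**Figure D2:**
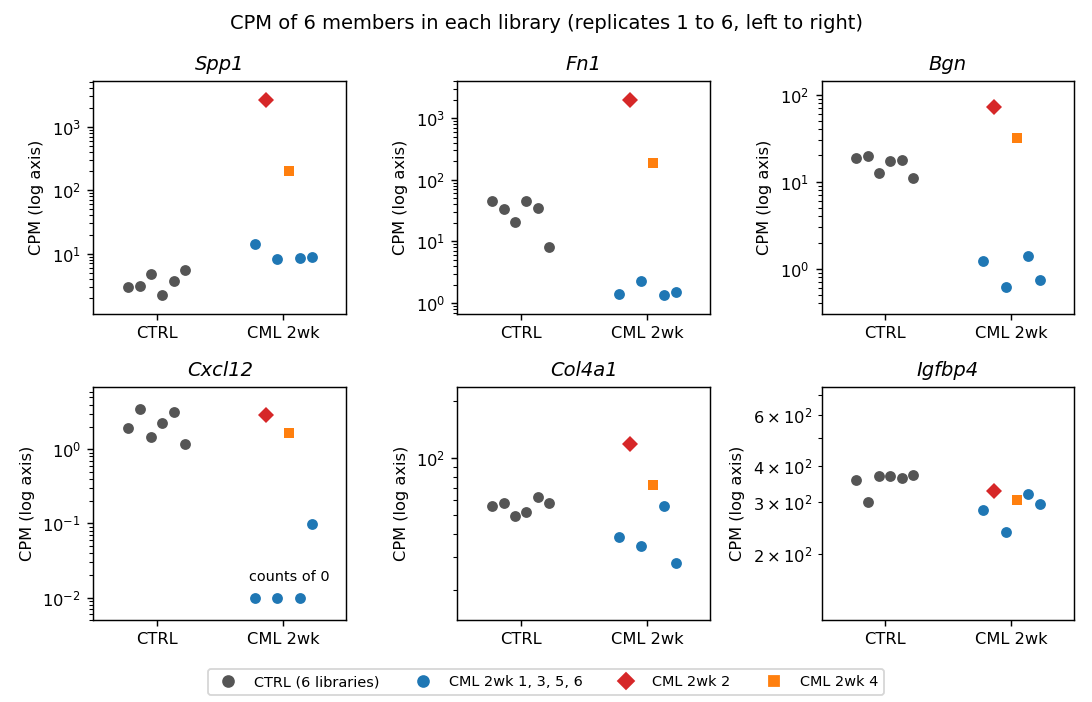
CPM (log axis, own scale in each panel) of Spp1, Fn1, Bgn, Cxcl12, Col4a1 and Igfbp4 in CTRL replicates 1 to 6 and CML 2wk replicates 1 to 6. Grey circles are CTRL, blue circles CML 2wk 1, 3, 5 and 6, the red diamond CML 2wk 2 and the orange square CML 2wk 4. All 6 CML 2wk points of Spp1 are above CTRL, and for Fn1 and Bgn 4 are below and 2 above.

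Of the small leucine-rich proteoglycans, which bind collagen fibrils and growth factors, biglycan (Bgn) was the one with more than traces in CTRL. Bgn ranged from 10.9 to 19.6 CPM in CTRL (median 17.5) and from 0.611 to 71.5 CPM in CML 2wk (median 1.31), with 31.6 in CML 2wk 4 and at most 1.38 in the other 4. Decorin (Dcn) ranged from 0 to 0.221 CPM in CTRL (median 0.112) and from 0 to 13.7 CPM in CML 2wk (median 0), and lumican (Lum) from 0 to 0.261 (median 0.0386) and from 0 to 5.31 (median 0). Neither gene had any count in CML 2wk 1, 3, 5 or 6, which allows 0.112 to 0.183 CPM in each.

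Lox (lysyl oxidase, which crosslinks collagen) ranged from 0.112 to 0.396 CPM in CTRL (median 0.205) and from 0.0985 to 28.4 CPM in CML 2wk (median 0.876). Mmp2 (gelatinase A) ranged from 4.85 to 6.58 CPM in CTRL (median 5.85) and from 0.985 to 25.3 CPM in CML 2wk (median 1.75), and Timp3 (an inhibitor of metalloproteases) from 4.07 to 7.87 (median 7.25) and from 2.26 to 30.4 (median 3.98). For Mmp2 the 4 low CML 2wk libraries lay below every CTRL library, while for Timp3 they reached 4.63 and overlapped with CTRL.

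IGF binding proteins gave the gene with the highest CTRL level. Igfbp4 ranged from 300.1 to 373 CPM in CTRL (median 366) and from 237 to 329 CPM in CML 2wk (median 301), so that the groups overlapped and CML 2wk 2 and 4 lay near the other CML 2wk libraries. Per kilobase of exon Igfbp4 also led in CTRL, at 82.8 CPM per kilobase, before Pdgfrb at 13.7, Col4a2 at 9.02 and Col4a1 at 7.65. In CML 2wk 2 the order per kilobase began with Spp1 at 1589.7 and Fn1 at 171. Igfbp7 ranged from 1.58 to 2.7 CPM in CTRL (median 1.89) and from 0.795 to 48.9 CPM in CML 2wk (median 1.90), and Igfbp5 from 0.113 to 0.530 (median 0.296) and from 0 to 7.94 (median 0.437).

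The niche chemokine and receptors included genes that are used to mark BM stromal cells. Cxcl12 ranged from 1.17 to 3.44 CPM in CTRL (median 2.11) and from 0 to 2.95 CPM in CML 2wk (median 0.0492), and was the one gene of this group whose highest library was a CTRL library. CML 2wk 2 and 4, with 2.95 and 1.68 CPM, lay within the CTRL range, whereas CML 2wk 1, 3, 5 and 6 together had 2 counts of Cxcl12 against 403 counts in the 6 CTRL libraries. Lepr, the leptin receptor of perivascular stromal cells, ranged from 0.0489 to 0.356 CPM in CTRL (median 0.231) and from 0.0492 to 10.5 CPM in CML 2wk (median 0.188), and Pdgfra from 0.0733 to 0.187 (median 0.120) and from 0 to 8.97 (median 0.153). Pdgfrb, a receptor of pericytes, was read at 59.0 to 94.3 CPM in CTRL (median 75.1) and 62.0 to 111 CPM in CML 2wk (median 74.6), so the groups overlapped. In CTRL 7 of the 34 genes had a median of 10 CPM or more and 17 a median under 1 CPM.

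Across all 12 libraries the fitted log2 fold change (CML 2wk over CTRL, edgeR) was positive in 18 of the 21 genes that passed the filter on low counts, and 13 genes were not tested. Of these 21 genes 7 were called higher (Col3a1, Lamb1, Fbln1, Fbln2, Spp1, Sparc and Igfbp7), where 30.4% of the 18438 genes tested were. Called lower was 1 (Igfbp4), where 28.8% of all genes tested were. The genes were selected on values in these libraries, so the calls describe the fit and are no test of the list. With any 1 library left out 2 (without CML 2wk 2) to 12 (without CML 2wk 1 or 5) were called higher. The genes of the 34 that passed the filter numbered 21 without CML 2wk 2 and 24 without CML 2wk 1 or 5. Of all genes, 11943 of 18680 were called in either direction without CML 2wk 2. Without CML 2wk 1 and without CML 2wk 5 these were 10701 of 18655 and 10735 of 18574. The median of the 21 genes was 0.91, beside 0.07 over all genes. Largest were Spp1 at 7.02 ± 1.88 (SE, n = 6 and 6), Fbln2 at 6.52 ± 2.12 and Col3a1 at 5.58 ± 2.02. Fn1 was 3.55 ± 1.80, Col1a1 4.36 ± 1.77, Bgn 0.15 ± 1.08 and Igfbp4 -0.27 ± 0.08.

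Without CML 2wk 2 the median was 0.29 (all genes 0.05), with 13 of 21 genes positive, 2 called higher (Lamb1 and Spp1) where 32.4% of all genes were, and 2 lower (Igfbp4 and Cxcl12) where 31.5% were. Without CML 2wk 2 and 4 the median was -1.04 (all genes 0.04) and 3 of 21 genes were positive, with Spp1 the one called higher where 32% of all genes were, and 12 called lower where 31.8% were. Leaving out the 2 libraries highest in these genes lowers the CML 2wk values by construction, and nothing is read from the count. Of the 21 genes 15 changed sign. Fn1 went to -4.28 ± 0.57, Bgn to -3.99 ± 0.25, Postn to -3.74 ± 0.52, Col1a1 to -3.47 ± 0.97 and Cxcl12 to -6.26 ± 0.65, the last resting on 2 counts and on the prior count of the fit. Spp1 was at 1.41 ± 0.23, and Igfbp4 at -0.33 ± 0.09. In levels, 11 genes (Col1a1, Col1a2, Col5a1, Col6a2, Col6a3, Fn1, Postn, Mgp, Bgn, Mmp2 and Cxcl12) had CML 2wk 1, 3, 5 and 6 all below every CTRL library, 1 (Spp1) had them all above, and 22 overlapped, and in the 27464 genes with 10 or more counts 18.8% had all 4 below.

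**Figure D3:**
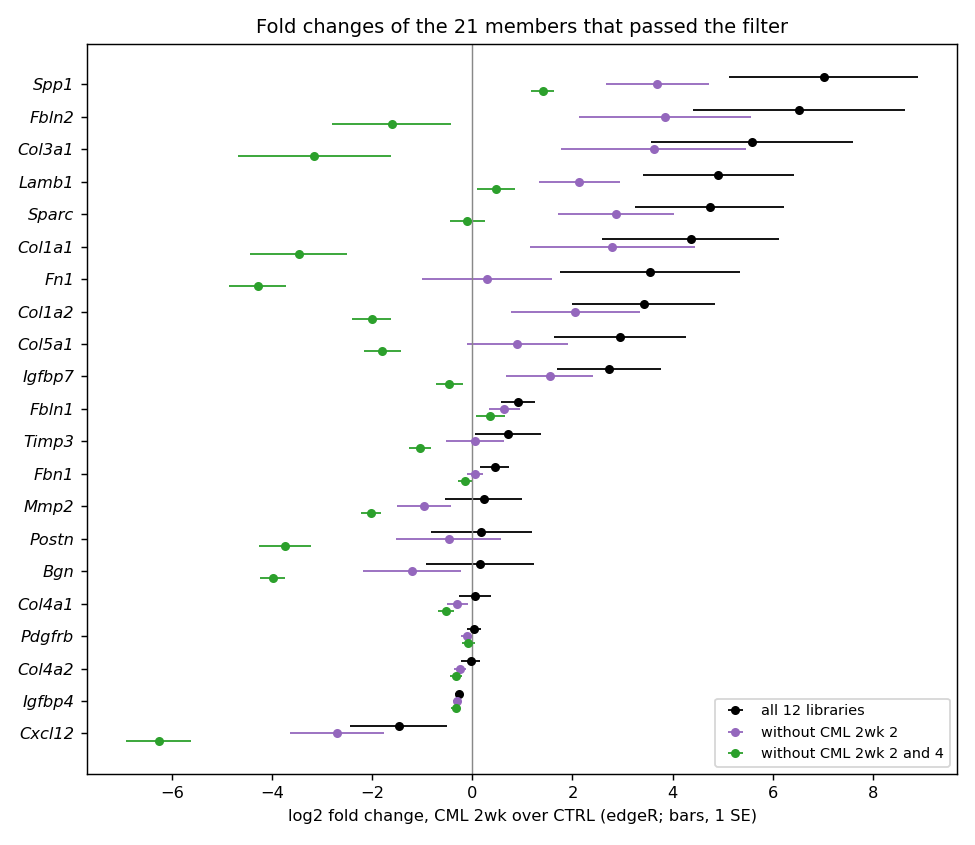
Log2 fold change, CML 2wk over CTRL, of the 21 genes tested, from edgeR, with 1 SE as bars. Black is all 12 libraries, purple without CML 2wk 2 and green without CML 2wk 2 and 4. Green points lie left of 0 for 18 genes, and Spp1 stays to the right.

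The excess in CML 2wk 2 and 4 was not of the same size for each gene. CPM in CML 2wk 2 divided by that in CML 2wk 4 ranged from 0.531 (Lum) to 13.0 (Spp1), with a median of 2.17. It was over 5 in 5 genes (Spp1, Fn1, Lamb1, Fbln2 and Nid1), 2 to 5 in 14, 1 to 2 in 13 and under 1 in Lum and Postn. Spp1 and Fn1 thus had far more in CML 2wk 2, whereas the ratios of Igfbp4, Fbln1 and Col6a2 were 1.08, 1.24 and 1.28.

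**Figure D4:**
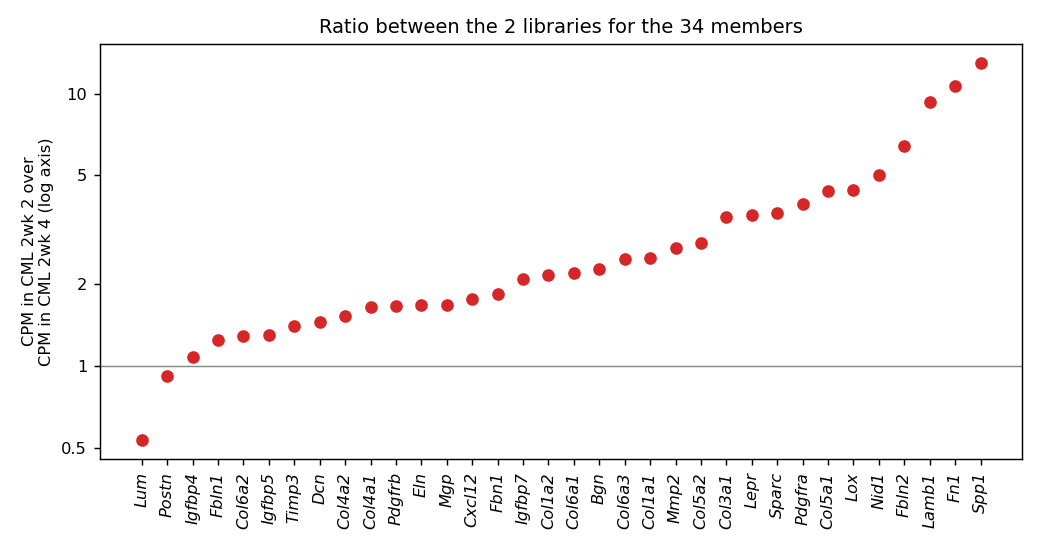
Ratio of CPM in CML 2wk 2 to CML 2wk 4 for each of the 34 genes, sorted (log axis, line at 1). The ratio spans 0.531 to 13.0, with Lum and Postn under the line.

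Genes of other matrix and receptor families were examined beside the 34, from lists that had been chosen with results of these data known. Among 14 tested of 21 other basement membrane genes 5 were called higher and 0 lower (edgeR quasi-likelihood test, Benjamini-Hochberg adjusted p under 0.05), where 30.4% and 28.8% of all genes were, and 3 and 6 without CML 2wk 2 and 4, where 32% and 31.8% were. These shares of all genes are the background of each count of genes called in the lists that follow. Smoc2, a calcium-binding matricellular protein, went from 0 to 0.113 CPM in CTRL to 2.57 to 22.6 CPM in CML 2wk (log2 fold change 7.20 ± 0.87, edgeR adjusted p = 1.53e-05) and was higher in 6 of 6 CML 2wk libraries. Col18a1, the endostatin precursor, rose with 4.14 to 5.50 CPM in CTRL against 5.99 to 50.7 CPM in CML 2wk (1.79 ± 0.52, edgeR adjusted p = 0.0107), and 0.74 ± 0.18 without CML 2wk 2 and 4 (edgeR adjusted p = 0.00220). Perlecan (Hspg2) and laminin alpha 5 (Lama5) rose with all 12 libraries (edgeR adjusted p = 0.0474 and 0.0331) and were not called without CML 2wk 2 and 4 (edgeR adjusted p = 0.151 and 0.185).

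Among 13 tested of 28 other collagens 2 were higher and 4 lower (all genes 30.4% and 28.8%), and 1 and 5 without CML 2wk 2 and 4. Col10a1, a collagen known from hypertrophic cartilage, rose from 3.76 to 6.06 CPM in CTRL to 10.1 to 19.2 CPM in CML 2wk (1.46 ± 0.16, edgeR adjusted p = 1.65e-06). Col19a1 fell from 1.49 to 2.96 CPM to 0.197 to 0.861 CPM (-1.95 ± 0.34, edgeR adjusted p = 0.000121), and Col16a1 fell from 23.7 to 39.8 CPM to 8.26 to 18.2 CPM (-1.20 ± 0.18, edgeR adjusted p = 3.58e-05). None of these 3 was highest in CML 2wk 2, which had 12.3, 0.726 and 11.3 CPM.

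Of 22 tested genes of collagen folding, processing and crosslinking (of 27) 6 were higher and 2 lower (all genes 30.4% and 28.8%), and 3 and 9 without CML 2wk 2 and 4. P4hb, the disulfide isomerase subunit of prolyl 4-hydroxylase, rose from 435 to 542 CPM in CTRL to 853 to 1694 CPM in CML 2wk (1.43 ± 0.15, edgeR adjusted p = 9.83e-07), and the prolyl 3-hydroxylase P3h3 fell from 15.9 to 21.6 CPM to 7.24 to 10.6 CPM (-1.22 ± 0.13, edgeR adjusted p = 7.13e-07). The collagen chaperone Serpinh1 (Hsp47) rose, with 0.593 to 0.972 CPM in CTRL and 0.245 to 55.6 CPM in CML 2wk (3.95 ± 1.29, edgeR adjusted p = 0.0219), and without CML 2wk 2 and 4 was not called (0.46 ± 0.54, edgeR adjusted p = 0.463). Serpinh1 had 55.6 CPM in CML 2wk 2 and 10.9 in CML 2wk 4, the libraries highest in the collagens it folds, while P4hb was higher in all 6 CML 2wk libraries.

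In 19 tested of 41 other matrix glycoproteins and proteoglycans 11 were higher and 2 lower (all genes 30.4% and 28.8%), and 8 and 7 without CML 2wk 2 and 4. Emilin2, an elastin-interface protein, rose from 40.9 to 80.5 CPM to 117 to 213 CPM (1.30 ± 0.17, edgeR adjusted p = 2.33e-05), and Ecm1 from 3.74 to 5.52 CPM to 5.66 to 66.3 CPM (2.13 ± 0.56, edgeR adjusted p = 0.00702), both also without CML 2wk 2 and 4 (edgeR adjusted p = 1.33e-05 and 0.000135). Versican (Vcan) was called with all 12 (2.55 ± 0.95, edgeR adjusted p = 0.0391) and not without the 2 libraries (edgeR adjusted p = 0.737).

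Among 17 tested of 29 proteases and inhibitors 5 were higher and 5 lower (all genes 30.4% and 28.8%), and 2 and 4 without CML 2wk 2 and 4. Mmp19 rose from 2.49 to 3.54 CPM to 3.93 to 16.4 CPM (1.61 ± 0.27, edgeR adjusted p = 9.31e-05), and Adamts10 fell from 91.7 to 109 CPM to 34.8 to 55.4 CPM (-1.17 ± 0.12, edgeR adjusted p = 5.53e-07). Of 26 integrins and other matrix receptors tested (of 31) 2 were higher and 7 lower (all genes 30.4% and 28.8%), and 2 and 19 of 27 without CML 2wk 2 and 4. Itga1, a collagen-binding integrin chain, fell from 7.46 to 11.8 CPM to 1.35 to 7.47 CPM (-1.22 ± 0.33, edgeR adjusted p = 0.00502), and Lair1, an inhibitory collagen receptor of leucocytes, rose from 48.9 to 56.6 CPM to 75.9 to 109 CPM (0.79 ± 0.09, edgeR adjusted p = 1.52e-06).

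Markers of other cells were read in each library beside the 34 genes. Of 14 mesenchymal stromal markers 10 were highest in CML 2wk 2, and their sum was 13.5 to 18.5 CPM in CTRL, 22.8 to 33.0 in CML 2wk 1, 3, 5 and 6, 48.5 in CML 2wk 4 and 227 in CML 2wk 2. Nt5e (CD73), Grem1 (a BMP antagonist) and Thy1 led that sum in CML 2wk 2 with 80.2, 72.6 and 44.7 CPM. Prrx1 (a mesenchymal transcription factor) was there at 10.5 CPM and Twist2, Adipoq, Dpt and Ngfr were at 0, Twist2 as in every library. Outside CML 2wk 2 and 4 that sum was mostly Thy1. Thy1 was read at 9.30 to 15.0 CPM in CTRL and 19.7 to 27.9 in CML 2wk 1, 3, 5 and 6. In CTRL and CML 2wk 1, 3, 5 and 6 Prrx1 was at most 0.149 CPM and Grem1 at most 0.244. The 11 pericyte and smooth muscle markers summed to 3.79 to 5.66 CPM in CTRL, 6.4 to 8.07 in those 4 libraries, 33.0 in CML 2wk 4 and 38.8 in CML 2wk 2. Rgs5 was higher in CML 2wk 4 than in CML 2wk 2, at 7.20 and 3.67 CPM.

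The 11 osteoblast markers summed to 178 to 204 CPM in CTRL, of which Runx2 was 174 to 199, and to 124 CPM in CML 2wk 2, where Sp7, Bglap, Bglap2, Ibsp, Mepe and Sost had no count. Mepe and Sost had none in any library and the other 4 were at most 0.245 CPM in all of them. The 13 endothelial markers summed to 360.4 to 386 CPM in CTRL, 218 in CML 2wk 2, 249 in CML 2wk 4 and 209 to 243 in the other 4, a sum led in CTRL by Pecam1, Tie1 and Vwf. Of these 13 genes 5 were highest in CML 2wk 2, among them the vascular cadherin Cdh5, with 6.87 CPM there, 1.62 in CML 2wk 4, 0.183 to 0.509 in the other 4 and 0.241 to 0.593 in CTRL, and Lyve1, with 1.67 CPM there and at most 0.289 elsewhere. The 7 osteoclast markers gave 51.2 CPM in CML 2wk 2, 9.04 in CML 2wk 4, 3.28 to 8.57 in the other 4 and 2.41 to 3.31 in CTRL. Of these markers Calcr was at 0 in all 12 libraries. Mast cell and basophil markers (11) gave 2683 CPM in CML 2wk 2, 1163 in CML 2wk 4, 506 to 1013 in the other 4 and 316 to 431 in CTRL. Macrophage markers (15) gave 716 CPM in CML 2wk 2, inside the 503 to 886 of the other 4. The part of these cells, of the Y-linked counts and of labelled sex in the levels of the 34 genes was not tested, and in bulk samples more cells of a type and more RNA per cell cannot be told apart.

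**Figure D5:**
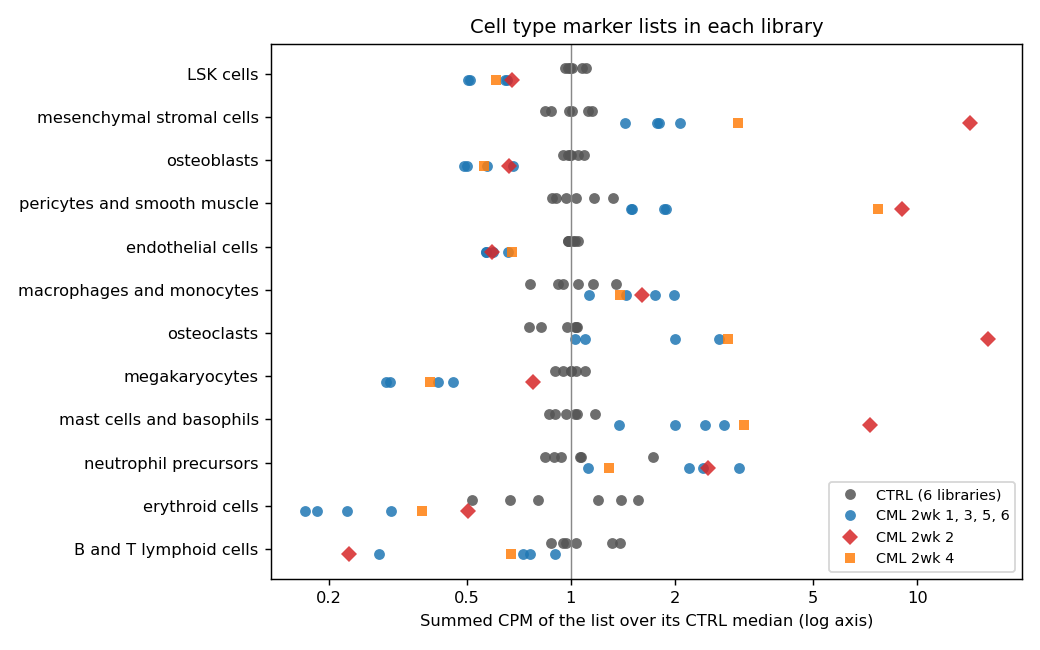
Summed CPM of each marker list over its CTRL median (log axis, line at 1), per library. Grey circles are CTRL, blue circles CML 2wk 1, 3, 5 and 6, red diamonds CML 2wk 2 and orange squares CML 2wk 4. Mesenchymal, pericyte, osteoclast and mast cell lists are highest in CML 2wk 2, and the osteoblast and endothelial lists are not.

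Genes outside the list were compared with the mean profile (standardized log2 CPM) of the 21 list genes that passed the filter on low counts. Closest over the 12 libraries were Kirrel (Pearson r = 0.989), Fstl1 (0.983), Krt18 (0.980), Itga3 (0.979) and Dlg5 (0.972). All were found by search of the other genes that passed that filter for this likeness, and the 12 points share CML 2wk 2 and 4. Fstl1, a secreted glycoprotein of the follistatin family, had 60.8 CPM in CML 2wk 2, 26.6 in CML 2wk 4 and a CTRL median of 10.6. Nes (nestin, an intermediate filament protein used to mark niche cells) had 52.1, 2.22 and 0.425 CPM.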

How the data were processed

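Bulk RNA-seq of 12 sorted LSK samples was used as raw counts per Ensembl gene, which the authors deposited for each library without normalization. Per the submitters' processing notes the tools were FastQC 0.11.9, fastp 0.23.2, STAR 2.7.10a, featureCounts 2.0.1 and DESeq2 1.36.0 on GRCm39 (mm39), whereas the study's methods name Trim Galore and HISAT2. How strand and multi-mapping reads were handled is not given in the sources used here, so close copies and antisense partners may share counts. Symbols were matched by Ensembl identifier (52073 of 56748). 0 entries named no gene. Groups came from the sample titles. The genes of the list, the related lists and the marker lists were chosen with earlier results of these data known. In each related list the genes named come from the 5 largest changes past the threshold at a mean of at least 1 CPM, in each marker list from its most abundant genes, and the most similar genes from the 10 highest correlations. Lamc1, Prrx1, Rgs5, Cdh5 and Lyve1, and marker genes at 0, were named after their values were seen.

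Counts were tested with edgeR 4.0.16 (quasi-likelihood test, TMM, filterByExpr, 18438 genes, Benjamini-Hochberg adjusted p under 0.05) in R 4.3.3. CPM use TMM factors. Alternatives were DESeq2 1.42.0, other size factors, no filter, a threshold of 0.01, a replicate block and libraries left out. On simulated counts edgeR called 161 of 200 changed genes, some of which the filter removed, and 5 of 17955 unchanged genes. The simulated libraries were independent, with few changed genes and no outlying library. Those rates therefore need not hold for these data, where CML 2wk 2 and 4 stand apart. Tables and plots used Python 3.11.15 and matplotlib 3.10.9. Exon lengths and promoter windows came from GRCm38 annotation, used for names, lengths and windows only.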

Additional observations from a re-analysis of the deposited data

Results flagged for a closer look

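Of 106 sets of 6 values examined, 27 held a library far from the other 5, and 21 of the 27 were CML 2wk 2. About 1 in 20 sets (5.3) is marked by chance alone, but the 34 genes were selected on high values in CML 2wk 2, and the lists were chosen with results known, so nothing is read from the number marked there. Among the 34 genes CML 2wk 2 stood apart in 13, with CPM there against the next library of 275 and 78.3 for Col3a1, 62.6 and 14.2 for Col5a1, 51.6 and 18.2 for Col5a2, 33.3 and 6.61 for Nid1, 74.6 and 8.01 for Lamb1, 149 and 23.2 for Fbln2, and 2001 and 187 for Fn1. The others were 2619.8 and 202 CPM for Spp1, 136 and 37.4 for Sparc, 28.4 and 6.44 for Lox, 25.3 and 9.31 for Mmp2, 10.5 and 2.92 for Lepr, and 8.97 and 2.27 for Pdgfra. In CTRL a library stood apart for Col6a3 (CTRL 6, 0.640 CPM), Lum (CTRL 3, 0.261 CPM) and Igfbp4 (CTRL 2, the lowest at 300.1 CPM).

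Summed lists with CML 2wk 2 apart were mesenchymal stromal cells (227 CPM), osteoclasts (51.2), megakaryocytes (273), mast cells and basophils (2683), Y-linked genes (22.7), other laminins and basement membrane genes (458), matrix proteases and their inhibitors (1069) and integrins and other matrix receptors (2887). CTRL 4 stood apart for neutrophil precursors (4825 CPM) and for matrix proteases and inhibitors (752 CPM), and CTRL 1 for Y-linked genes (2.30 CPM).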

How the results depend on the processing

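Member fold changes were recomputed under 398 combinations of gene and setting: 371 moved by less than 1 SD and 360 kept their sign. Some moves within 1 SD changed the sign, so the 371 is not a measure of stability. Without CML 2wk 2 and 4, 15 of the 21 members changed sign. Of those called over all 12 libraries these were 4, Col3a1 -3.15, Fbln2 -1.61, Sparc -0.10 and Igfbp7 -0.46. The median of the members then was -1.04 against 0.91. It was 3.40 under DESeq2 and 3.35 with no filter (34 members each), and 0.29 to 3.08 with 1 library left out. Counts of genes called higher for members, other laminins, other collagens, folding genes, other glycoproteins, proteases and integrins, in that order, were 7, 5, 2, 6, 11, 5 and 2. Without CML 2wk 2 and 4 they were 1, 3, 1, 3, 8, 2 and 2, and genes called lower were 12 members, 6 laminins, 9 folding genes, 7 glycoproteins and 19 receptors. DESeq2 gave 18 members (2 NA), 8 collagens, 10 folding genes, 12 proteases and 4 integrins, and no filter gave 4 collagens, 11 proteases and 1 integrin. All genes called in either direction were 11914 of 34929 under DESeq2, 11157 of 34929 with no filter and 10909 of 18438 in the main fit. With 1 library left out they were 10098 (without CTRL 1) to 11943 (without CML 2wk 2). The total over all genes at a threshold of 0.01 is not given here. At a threshold of 0.01 counts were 1, 2, 1, 2, 7, 2 and 1 higher, with 0 members and 2 proteases lower. The replicate block gave 1 member, 3 laminins, 1 collagen, 3 folding genes, 3 proteases and 1 integrin higher, and 9923 against 10909 genes called. Same-numbered libraries did not deviate together (correlations -0.13 to 0.07, 1 of 6 best with its own number). The correlations show no pairing by number, and they cannot exclude a shared batch or sort day. Upper-quartile factors, and leaving out both libraries numbered 6, gave 3 proteases lower, and the former moved the median of all genes from 0.07 to 0.14. With 1 library left out the counts spanned 2 to 12 members higher and 1 to 2 lower, 3 to 7 laminins higher and 0 to 3 lower, 1 to 3 collagens higher, 2 to 6 folding genes lower, 2 to 4 glycoproteins lower, 3 to 6 proteases higher, 1 to 4 integrins higher and 6 to 14 lower. Members called higher were 12 without CML 2wk 1 or 5, 11 without CML 2wk 3 or 6, 4 without CML 2wk 4, CTRL 1 or CTRL 5, 3 without CTRL 2 and 2 without CML 2wk 2, with 21 to 24 members tested (21 without CML 2wk 2). The highest of these counts of genes called lower came without CML 2wk 2. The cause of these changes was not tested. Depth limits what can be said of the 13 members not tested.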
